A study of Mus musculus with 27 samples.

Results

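The reactive gliosis genes are 9 genes taken by symbol from a count table of 55487 genes: Gfap, Cd44, Serpina3n, Lcn2, Cp, Edn2, Osmr, Stat3 and Socs3. All 9 were in the table, and all 9 were among the 17409 genes with enough reads to be tested. They were measured in whole retinas of 27 mice aged 9 months, 1 library per mouse, by QuantSeq, a 3′ mRNA sequencing method that reads the end of each transcript. The study crossed heterozygous loss of Gne, the enzyme that starts sialic acid synthesis, with loss of C3, the central protein of the complement cascade, to ask whether changes that follow reduced sialylation of the retina depend on complement. The groups were 7 wildtype mice (Gne+/+, C3+/+), 7 Gne+/- mice with both C3 alleles intact, 7 C3-/- mice with both Gne alleles intact, and 6 Gne+/- C3-/- mice. No group was given an agent, per the labels. The strain and the sex of the mice are not given in the sources used here. The p-values below measure the spread between these mice.

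Müller glia span the whole depth of the retina and, with the astrocytes of the nerve fibre layer, answer damage with a programme called reactive gliosis. In the mouse, stressed photoreceptors release the peptide endothelin 2, and cytokines of the IL-6 family act on glia through receptors such as the oncostatin M receptor and through the transcription factor STAT3, which raises Gfap and its own inhibitor Socs3. Gliotic cells build up the filament protein GFAP and the adhesion receptor CD44, and secrete acute-phase proteins such as lipocalin 2, ceruloplasmin and the serpin encoded by Serpina3n.

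Because STAT3 stands at the centre of this programme, the promoters of the 9 genes were read for its binding motif, TTCNNNGAA, on both strands. The windows, from RefSeq (GRCm38.p6), run from 250 bases before to 50 bases after a gene's start, and 10 windows covered the 9 genes, since Cp has 2 starts. The motif was found in the windows of Gfap and Socs3 and in no window of the other members. Of all 32817 RefSeq windows of this length, 8.29% hold it. The stricter form TTCCNGGAA, which overlaps it, was found in the Gfap window and in 1.15% of all windows, and the NF-kB motif GGGANTTTC in no member's window and in 1.11% of all. A match is a run of letters and not a measured binding site. Both windows lie on the minus strand of chromosome 11, Gfap at chr11:102897151-102897450 and Socs3 at chr11:117969317-117969616. They are shown because they are the members' windows with the motif, which is in capitals.
Gfap: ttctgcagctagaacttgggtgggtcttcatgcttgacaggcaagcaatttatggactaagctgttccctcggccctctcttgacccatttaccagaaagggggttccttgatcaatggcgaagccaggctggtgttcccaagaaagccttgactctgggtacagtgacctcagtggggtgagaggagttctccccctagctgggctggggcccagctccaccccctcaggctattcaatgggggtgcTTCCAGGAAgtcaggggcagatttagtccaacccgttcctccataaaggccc
Socs3: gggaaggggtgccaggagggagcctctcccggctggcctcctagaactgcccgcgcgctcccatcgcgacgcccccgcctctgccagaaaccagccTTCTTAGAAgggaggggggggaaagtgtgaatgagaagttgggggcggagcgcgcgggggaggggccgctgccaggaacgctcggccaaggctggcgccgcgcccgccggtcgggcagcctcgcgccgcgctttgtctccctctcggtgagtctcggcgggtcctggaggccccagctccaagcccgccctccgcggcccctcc
The Gfap match begins 2 bases before the RefSeq start, and the Socs3 match 154 bases before it. Both windows lie inside the wider gene spans given below, so they are not upstream of the outermost annotated ends.

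Total counts ran from 13528183 to 34170608 per library. Sequencing run 1 held 5 wildtype, 5 Gne+/-, 4 C3-/- and 4 Gne+/- C3-/- libraries, and run 2 held 2, 2, 3 and 2. Levels are therefore given by run, in CPM, a count scaled to the library's size. The targeted genes followed the labels: Gne read 32 to 56.7 CPM in the heterozygotes of run 1 against 99.2 to 162 CPM in the other libraries of that run, and C3 read at most 3.6 CPM in both groups without it against at least 53.9 CPM elsewhere. The 16 Müller glia markers were all present, at a summed 5610 to 8290 CPM in run 1 and 3260 to 4530 CPM in run 2. The Y-linked genes Kdm5d, Eif2s3y, Uty and Ddx3y averaged at most 0.405 CPM in the wildtype libraries of run 1 and at least 118 CPM in the C3-/- libraries of that run. In run 2 their mean was at least 72.2 CPM in wildtype and at most 0.678 CPM in C3-/-, so within a run this difference and the C3 genotype of these groups cannot be told apart. The Gne+/- and the Gne+/- C3-/- libraries of run 1 were of both kinds. The Gne+/- libraries of run 1 with a high mean were mice 1 (89.5 CPM) and 4 (157 CPM). In run 2 the Gne+/- C3-/- libraries were high, at 70.8 and 61.4 CPM, and the C3-/- libraries low. There the Y-linked difference and the Gne genotype of these groups cannot be told apart either.

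**Figure D1:**
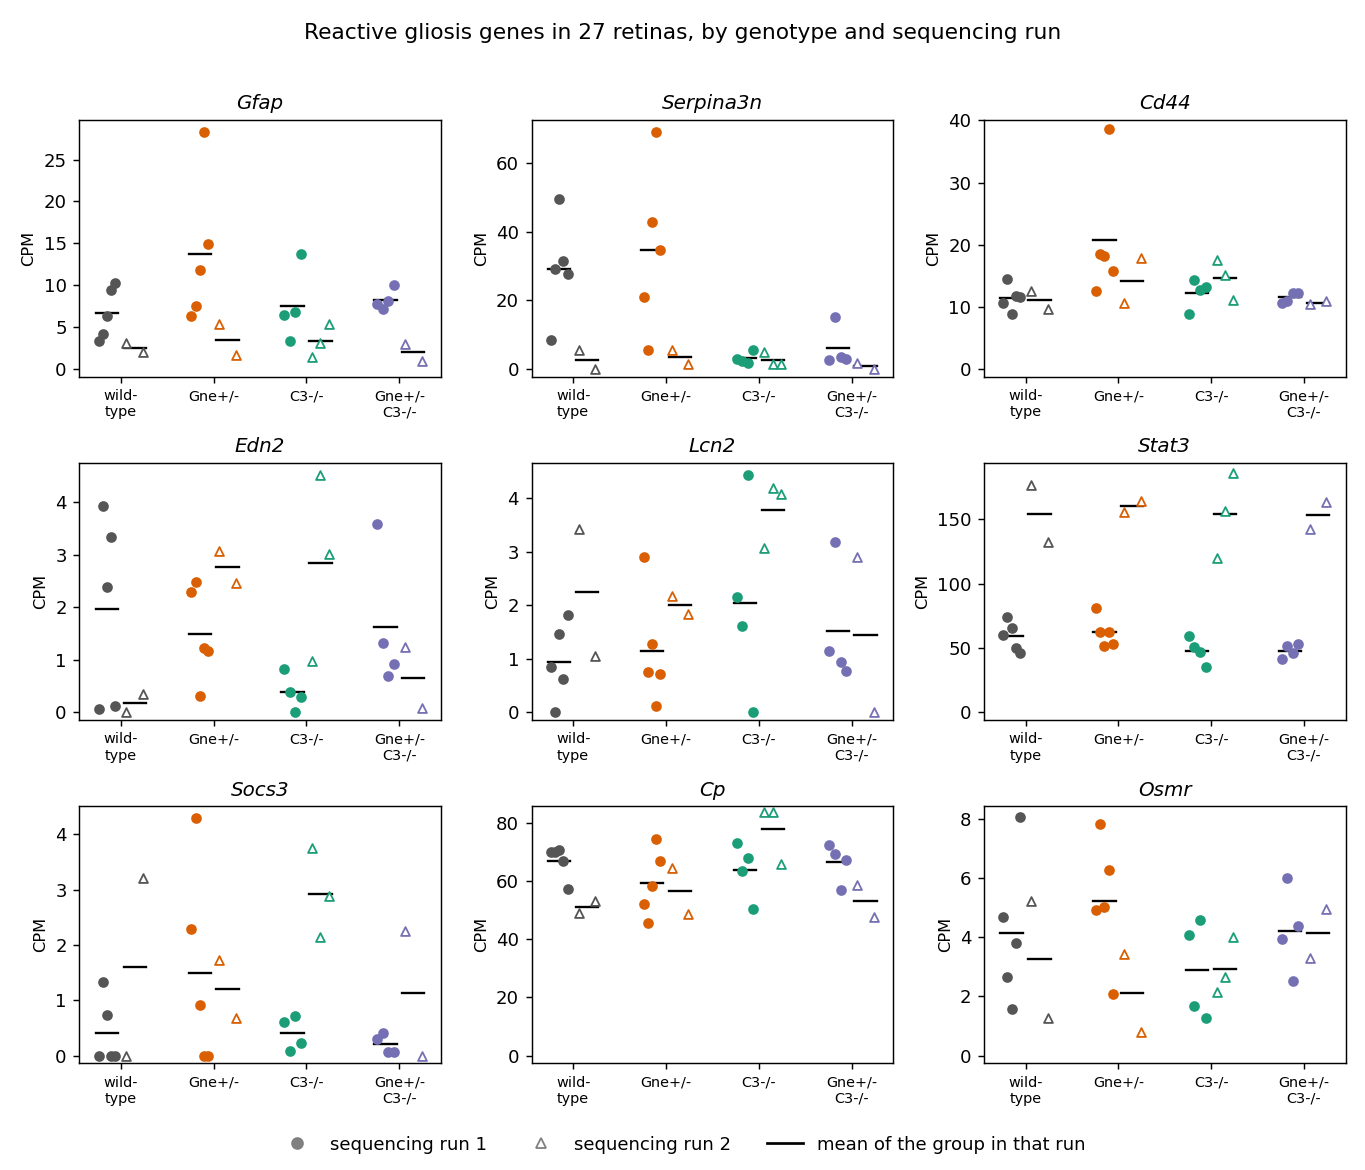
Level of each reactive gliosis gene (vertical axis, CPM, from 0) in every library, by genotype, with filled circles for run 1, open triangles for run 2 and a bar at each group's mean within a run. The highest Gfap (28.3 CPM), Cd44 (38.6 CPM) and Serpina3n (69 CPM) values belong to the same Gne+/- retina of run 1, the Serpina3n values of run 1 are low in C3-/- retinas, and Stat3 is higher in run 2 in all 4 genotypes.

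No member's level differed between genotypes past the test across all genes, and 3 of them, Gfap, Cd44 and Serpina3n, had an unadjusted p under 0.05 in at least 1 comparison. Gfap and Cd44 read higher in Gne+/- than in wildtype retinas, with fitted levels of 184% and 165% of wildtype, and Serpina3n read lower in retinas without C3, at 27.7% of wildtype in C3-/- and at 18.5% of Gne+/- in Gne+/- C3-/-. These fits span both runs. Mean Serpina3n in C3-/- and wildtype was 3.16 and 29.2 CPM in run 1, but 2.61 and 2.76 CPM in run 2. In Gne+/- C3-/- and Gne+/- it was 6.05 and 34.5 CPM, then 0.887 and 3.47 CPM. Within a run, C3-/- and wildtype libraries also differed in Y-linked level. Under the threshold used throughout, an adjusted p of 0.05 from edgeR's quasi-likelihood test with Benjamini-Hochberg adjustment over all 17409 genes, 0 of the 9 members were called for Gne+/- against wildtype, where 0.00574% of all genes were called. The counts were 0 of 9 for Gne+/- C3-/- against C3-/- (0.00574% of all genes), 0 of 9 for C3-/- against wildtype (0.167%), 0 of 9 for Gne+/- C3-/- against Gne+/- (0.19%), and 0 of 9 for any difference among the 4 genotypes (0.35%). The difference between the Gne effect without C3 and the Gne effect with C3 also called 0 of 9 members, with 0% of all genes called. DESeq2 and limma-voom called 0 of the 9 in each of these comparisons too. At an unadjusted edgeR p under 0.05 there were 2 members for Gne+/- against wildtype (Cd44 and Gfap), 0 for Gne+/- C3-/- against C3-/-, 1 for C3-/- against wildtype (Serpina3n), 2 for Gne+/- C3-/- against Gne+/- (Cd44 and Serpina3n), 1 for the difference of the Gne effects (Cd44) and 2 for any difference (Cd44 and Serpina3n). The same unadjusted limit was met by 5.76%, 1.35%, 4.49%, 6.4%, 3.18% and 4.92% of all genes in these comparisons.

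For Gne+/- against wildtype, 8 of the 9 fitted log2 fold changes were positive, all but Cp, with a median of 0.20 against 0.0051 over all genes tested. For Gne+/- C3-/- against C3-/-, 2 of the 9 were positive, Edn2 and Osmr, with a median of -0.19 against -0.0052. These comparisons share no library. C3-/- against wildtype and Gne+/- C3-/- against Gne+/- reuse the same 4 groups, and gave 5 and 3 positive values with medians of 0.18 and -0.41 against -0.0055 and -0.0062 over all genes. In run 1, the groups of Gne+/- and wildtype did not overlap for 0 of 9 members, where 0.592% of all genes did not overlap. The corresponding counts were 0 of 9 for Gne+/- C3-/- against C3-/- (2.11% of all genes), 1 of 9 for C3-/- against wildtype (Serpina3n, 2.18%) and 1 of 9 for Gne+/- C3-/- against Gne+/- (Cd44, 2.4%). No member's groups stood apart in the same direction in both runs in any of the 4 comparisons, which 0.0689%, 0.253%, 0.511% and 0.758% of all genes did.

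**Figure D2:**
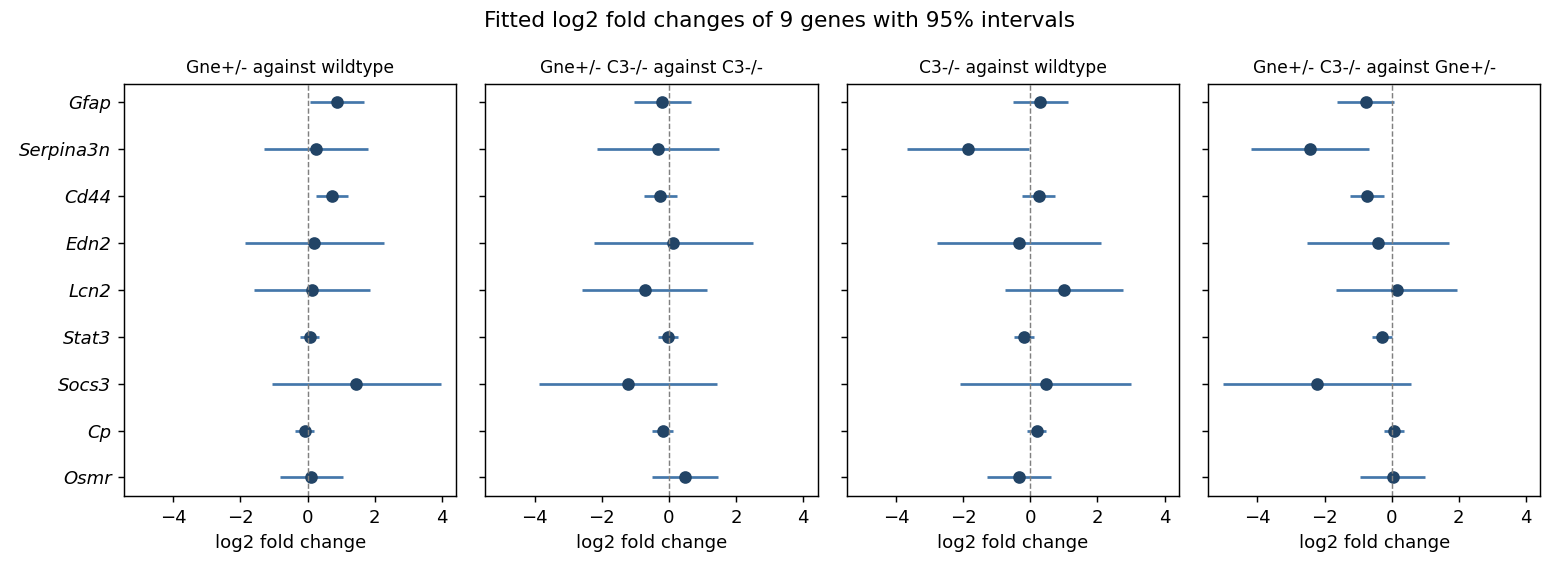
Fitted log2 fold changes of the 9 genes (points) with 95% intervals (lines) in the 4 pairwise genotype comparisons. The intervals of Stat3 and Cp are narrow and lie near 0, and those of Socs3 and Edn2 span several units. Before adjustment for the number of genes, those of Cd44 and Gfap for Gne+/- against wildtype lie to one side of 0. So do those of Serpina3n in both C3 comparisons and of Cd44 for Gne+/- C3-/- against Gne+/-.

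Gfap encodes the intermediate filament by which reactive Müller glia and astrocytes are recognised, and lies on the minus strand of chromosome 11 from 102887336 to 102900912 (GRCm38, as are all gene positions below). In run 1 it read 3.35, 4.23, 6.28, 9.47 and 10.2 CPM in the wildtype retinas. In the Gne+/- retinas of that run it read 6.3, 7.52, 11.9, 14.9 and 28.3 CPM. The upper 3 Gne+/- retinas were above every wildtype retina and the other two lay within the wildtype range, so the groups overlapped. Without C3, Gfap read 3.37, 6.45, 6.79 and 13.7 CPM in C3-/- and 7.19, 7.76, 8.1 and 10.1 CPM in Gne+/- C3-/- retinas. The latter all lay inside the C3-/- range. In run 2 Gfap read 2.02 and 3.13 CPM in wildtype, 1.7 and 5.36 CPM in Gne+/-, 1.48, 3.11 and 5.37 CPM in C3-/- and 0.975 and 3.02 CPM in Gne+/- C3-/- retinas, with every group overlapping the others.

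The fitted log2 fold change of Gfap for Gne+/- against wildtype was 0.88 (SE 0.39, 95% interval 0.07 to 1.69, edgeR adjusted p = 0.849). Within run 1 alone it was 1.05 and within run 2 alone 0.46. On the C3-/- background the Gne difference was -0.19 (SE 0.41, interval -1.05 to 0.66, edgeR adjusted p = 1), and this minus the Gne difference with C3 was -1.07 (SE 0.56, interval -2.24 to 0.10, edgeR adjusted p = 1). C3-/- against wildtype gave 0.30 (SE 0.39) and Gne+/- C3-/- against Gne+/- gave -0.78 (SE 0.41), with edgeR adjusted p-values of 0.999 and 0.801.

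Cd44 (chromosome 2, 102811141 to 102901665, minus strand) encodes the receptor for hyaluronan and osteopontin that reactive Müller glia and astrocytes place on their surface. In run 1 it read 8.89, 10.6, 11.5, 11.8 and 14.5 CPM in wildtype and 12.5, 15.7, 18.2, 18.6 and 38.6 CPM in Gne+/- retinas. All but one of the Gne+/- retinas were above the highest wildtype retina. It read 8.88, 12.8, 13.1 and 14.4 CPM in C3-/- retinas and 10.7, 10.9, 12.3 and 12.3 CPM in Gne+/- C3-/- retinas, which puts the highest double mutant just below the lowest Gne+/- retina. In run 2 Cd44 read 9.62 and 12.6 CPM in wildtype, 10.6 and 17.8 CPM in Gne+/-, 11.1, 15.1 and 17.6 CPM in C3-/- and 10.4 and 11 CPM in Gne+/- C3-/- retinas. There the Gne+/- retinas overlapped both the wildtype and the double mutant retinas.

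The fitted log2 fold change of Cd44 was 0.73 for Gne+/- against wildtype (SE 0.23, interval 0.25 to 1.20, edgeR adjusted p = 0.822), with 0.88 in run 1 alone and 0.38 in run 2 alone. On the C3-/- background it was -0.25 (SE 0.24, interval -0.75 to 0.24, edgeR adjusted p = 1). This minus the Gne difference with C3 was -0.98 (SE 0.33, unadjusted p = 0.0056, edgeR adjusted p = 1), which did not hold up against the number of genes tested. Gne+/- C3-/- against Gne+/- gave -0.74 (SE 0.24, interval -1.23 to -0.24, edgeR adjusted p = 0.515), and C3-/- against wildtype 0.24 (SE 0.23, edgeR adjusted p = 0.999).

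Gne+/- mouse 4 held the highest Gfap, Cd44 and Serpina3n values of all libraries. Without it, the log2 fold change for Gne+/- against wildtype was 0.56 for Gfap (edgeR unadjusted p = 0.158) and 0.46 for Cd44 (edgeR unadjusted p = 0.0312), and that of Serpina3n passed from 0.25 to -0.12. For Gne+/- C3-/- against Gne+/- the values without it were -0.45 for Gfap, -0.47 for Cd44 and -2.07 for Serpina3n. Markers of lens moved with the same group. Of 15 lens genes listed, 12 had reads and 10 were tested, all 10 with a positive fitted difference between Gne+/- and wildtype, a median log2 fold change of 3.51 and none called. The defining lens genes Cryaa and Cryba1 were listed at 0, and the span of each is covered by other annotated genes. The summed lens level of run 1 was 1.19 to 171 CPM in wildtype, 131 to 1790 CPM in Gne+/-, 1.28 to 133 CPM in C3-/- and 4.25 to 168 CPM in Gne+/- C3-/- libraries, and mice 4 and 1 of the Gne+/- group held the highest, 1790 and 835 CPM. With both of these left out, a choice made after seeing the data, the differences for Gne+/- against wildtype were 0.66 for Gfap and 0.51 for Cd44, with edgeR unadjusted p-values of 0.11 and 0.0226. Mice 4 and 1 were also the Gne+/- libraries of run 1 with a high Y-linked level. With that level as a covariate and all libraries kept, the differences were 0.90 for Gfap and 0.74 for Cd44. In run 2, where the lens sum was 4.05 to 6.23 CPM in Gne+/- and 4.61 to 17.6 CPM in wildtype, Gfap and Cd44 differed by the 0.46 and 0.38 given above.

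**Figure D3:**
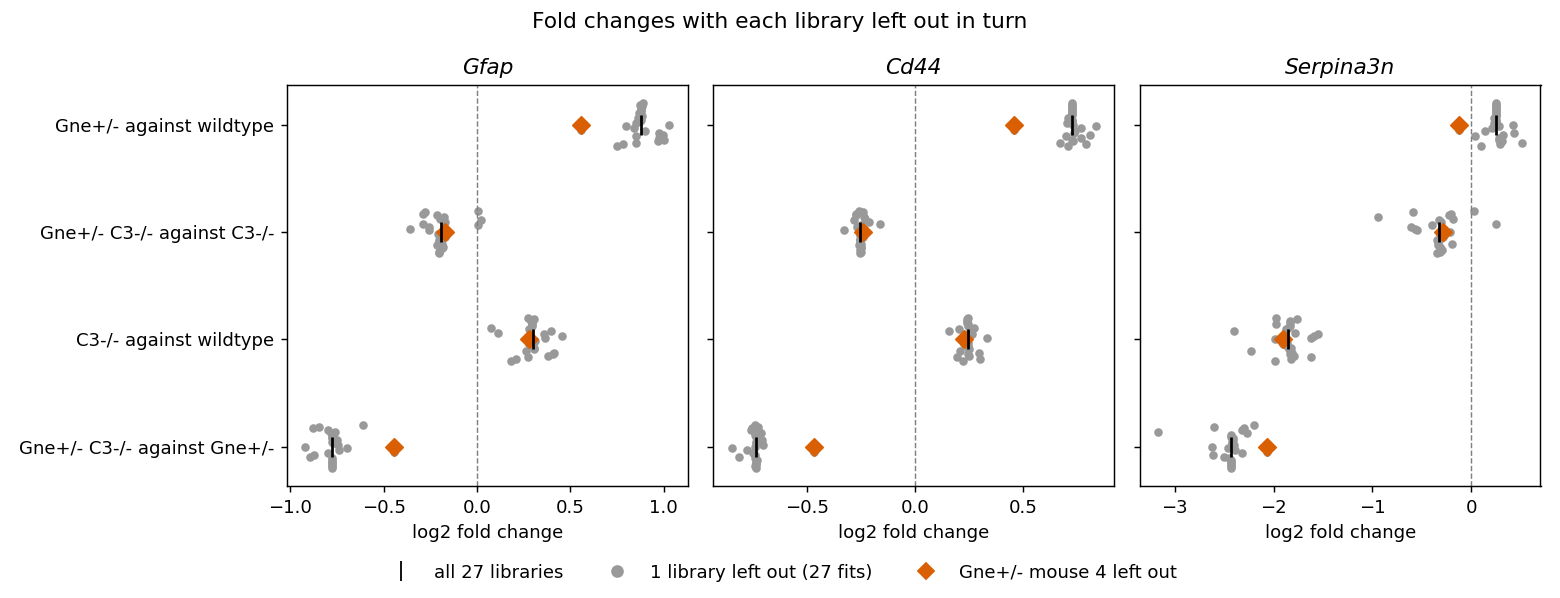
Log2 fold changes of Gfap, Cd44 and Serpina3n (horizontal axes) in the 4 pairwise comparisons with all libraries (black bars), with each of the 27 libraries left out in turn (grey points) and with Gne+/- mouse 4 left out (orange diamonds). Leaving out mouse 4 gives the smallest Gfap and Cd44 differences between Gne+/- and wildtype, 0.56 and 0.46, and takes that of Serpina3n to the other side of 0.

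Markers of retinal astrocytes, which also make Gfap, were read beside it. All 7 (Pax2, Pdgfra, S100b, Aldh1l1, Gja1, Slc14a1 and Agt) were tested, 0 were called, and 7 of 7 had positive differences for Gne+/- against wildtype, with a median of 0.82. Their summed level in run 1 was 9.36 to 18 CPM in wildtype and 15.4 to 24.7 CPM in Gne+/- libraries, and in run 2 19.6 to 23.6 CPM and 19.4 to 29 CPM. For Gne+/- C3-/- against Gne+/- 0 of the 7 were positive, with a median of -0.58. Both comparisons use the same Gne+/- libraries. For Gne+/- C3-/- against C3-/- 4 of the 7 were positive with a median of 0.28, and for C3-/- against wildtype 3 of 7 with -0.36. Over all genes tested the medians of these comparisons lay between -0.0062 and 0.0051. The Müller glia markers gave 10 of 16 positive values for Gne+/- against wildtype, with a median of 0.02 and 0 called. In whole retina, fewer cells of a type and less RNA per cell cannot be told apart, and the part that astrocyte number or lens RNA has in the Gfap and Cd44 values was not tested.

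Serpina3n (chromosome 12, 104406729 to 104414329, plus strand) encodes a secreted protease inhibitor of the acute-phase response and is a marker of reactive astrocytes in mouse brain. In run 1 it read 8.61, 27.8, 29, 31.3 and 49.4 CPM in wildtype and 1.64, 2.45, 2.92 and 5.63 CPM in C3-/- retinas. Every C3-/- retina lay below every wildtype retina. In the same run it read 5.42, 20.9, 34.6, 42.7 and 69 CPM in Gne+/- and 2.61, 3.03, 3.5 and 15.1 CPM in Gne+/- C3-/- retinas, where 1 double mutant and 1 Gne+/- retina made the groups overlap. In run 2 the levels of all 4 genotypes were low: 0.0439 and 5.48 CPM in wildtype, 1.48 and 5.46 CPM in Gne+/-, 1.36, 1.54 and 4.92 CPM in C3-/-, and 0 and 1.77 CPM in Gne+/- C3-/- retinas. The pattern of run 1 was not seen there, since 1 wildtype retina had a single read and the other lay close to the highest C3-/- retina.

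The fitted log2 fold change of Serpina3n was -1.85 for C3-/- against wildtype (SE 0.87, interval -3.66 to -0.05, edgeR adjusted p = 0.999). Within run 1 alone it was -3.22 (edgeR adjusted p = 0.133) and within run 2 alone -0.09 (edgeR adjusted p = 0.998). For Gne+/- C3-/- against Gne+/- it was -2.43 (SE 0.85, interval -4.19 to -0.67, edgeR adjusted p = 0.597), with -2.52 and -1.98 in the separate runs. The call turned on the filter for low counts. Serpina3n itself passed that filter, which decides the genes from which the spread is estimated. With no filter, edgeR gave nearly the same log2 fold changes, -1.85 and -2.42, with adjusted p-values of 1.46e-05 and 3.52e-11, so that 1 of the 9 members was called in the first of these comparisons (0.309% of 29460 genes), in the second (1.04%) and for any difference among the genotypes (1.69%). The other settings called it in none of these comparisons. Without the filter the genes called in the first comparison rose from 29 to 91 and in the second from 33 to 306. Why the p-values changed was not tested. The Gne difference of Serpina3n was 0.25 with C3 (SE 0.74) and -0.32 without it (SE 0.88), with edgeR adjusted p-values of 0.972 and 1.

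The Y-linked level, which separates the wildtype from the C3-/- libraries within each run, was read against Serpina3n in the mixed groups. The Gne+/- retinas of run 1 with a high Y-linked level read 20.9 and 69 CPM of Serpina3n and those with a low one 5.42, 34.6 and 42.7 CPM, so the ranges overlapped. In Gne+/- C3-/- retinas of run 1 the values were 2.61 and 15.1 CPM against 3.03 and 3.5 CPM. With the Y-linked level as a covariate, the log2 fold changes for C3-/- against wildtype and Gne+/- C3-/- against Gne+/- became -1.76 and -2.35, with edgeR unadjusted p-values of 0.0491 and 0.012. For C3-/- against wildtype, the Y-linked level and the C3 genotype cannot be told apart within a run. The part that the Y-linked difference has in the Serpina3n values was not tested. Serpina3n stands in a cluster of related serpin genes on chromosome 12, and the counting command in the file headers has no option that counts reads aligned to several places. Of 10 related Serpina3 genes listed, 0 had enough reads to be tested, and their summed level was at most 2 CPM in any library. Serpina3k was listed at 0, with its whole span covered by other genes.

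Lcn2 (chromosome 2, 32384633 to 32388252, minus strand) encodes lipocalin 2, a secreted carrier of iron-binding siderophores made by reactive astrocytes and by neutrophils. It was close to the detection limit, with 0 to 152 counts per library and reads in 24 of 27. Levels in run 1 were 0, 0.615, 0.838, 1.47 and 1.82 CPM in wildtype and 0.111, 0.711, 0.752, 1.28 and 2.9 CPM in Gne+/- retinas, and 0, 1.61, 2.15 and 4.43 CPM in C3-/- and 0.776, 0.932, 1.15 and 3.18 CPM in Gne+/- C3-/- retinas. In run 2 it read 1.05 and 3.42 CPM in wildtype, 1.84 and 2.17 CPM in Gne+/-, 3.07, 4.07 and 4.19 CPM in C3-/-, and 0 and 2.9 CPM in Gne+/- C3-/- retinas. The C3-/- retinas held the highest value of each run, and their range overlapped wildtype in both. The fitted log2 fold changes were 0.13 for Gne+/- against wildtype, 1.00 for C3-/- against wildtype, -0.73 for Gne+/- C3-/- against C3-/- and 0.15 for Gne+/- C3-/- against Gne+/-, each with an SE between 0.84 and 0.89. Over the 13 member values at 0 counts, those of Edn2, Socs3 and Serpina3n included, a count of 0 allowed levels of up to 0.117 to 0.225 CPM, for counting error only.

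Neutrophil markers, read because Lcn2 is also a neutrophil gene, were scarce. Of 9 listed genes, 0 were tested and Elane was listed at 0, and the sum was 0 to 4.78 CPM in run 1 and 0.0439 to 1.69 CPM in run 2. The highest sum was in Gne+/- mouse 4, where Lcn2 read 0.111 CPM. The highest Lcn2 level, 4.43 CPM, was in C3-/- mouse 5, with a neutrophil sum of 0.143 CPM.

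Cp (chromosome 3, 19957054 to 20009145, plus strand) encodes ceruloplasmin, a copper-carrying ferroxidase that Müller glia make and raise in retinal injury. It had 606 to 3037 counts per library. In run 1 it read 57.2, 66.9, 69.9, 70 and 70.7 CPM in wildtype, 45.6, 51.9, 58, 66.7 and 74.2 CPM in Gne+/-, 50.4, 63.4, 68 and 72.9 CPM in C3-/- and 56.8, 67.3, 69.2 and 72.3 CPM in Gne+/- C3-/- retinas. All 4 ranges overlapped. In run 2 the C3-/- retinas, at 65.8, 83.6 and 83.6 CPM, were above the wildtype retinas at 48.8 and 53.1 CPM, the Gne+/- retinas at 48.8 and 64.4 CPM and the double mutants at 47.4 and 58.5 CPM. These groups hold 3 libraries or fewer, and the share of all genes that stood apart in run 2 alone was not computed. The C3-/- retinas of run 2 were also the only ones of that run with a low Y-linked level. The run 2 difference between C3-/- and wildtype was 0.62 on the log2 scale (unadjusted p = 0.00353, edgeR adjusted p = 0.708) and that of run 1 was -0.08. Over both runs the 4 fitted differences of Cp lay between -0.19 and 0.18, and the interval for Gne+/- against wildtype ran from -0.37 to 0.20. Other annotated genes overlap 25.34% of the span of Cp, and reads that fall there were left out of its counts.

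Edn2 (chromosome 4, 120161206 to 120167360, plus strand) encodes endothelin 2, the peptide that stressed photoreceptors signal with to Müller glia. Its counts ran from 0 to 164, with reads in 25 of 27 libraries. The run 1 retinas gave 0.0559, 0.114, 2.38, 3.33 and 3.93 CPM in wildtype, 0.307, 1.17, 1.22, 2.28 and 2.48 CPM in Gne+/-, 0, 0.3, 0.383 and 0.828 CPM in C3-/- and 0.699, 0.917, 1.31 and 3.58 CPM in Gne+/- C3-/- retinas. The wildtype retinas alone spanned nearly the whole range. In run 2 wildtype read 0 and 0.351 CPM, below the 2.46 and 3.06 CPM of Gne+/- and the 0.983, 3.01 and 4.52 CPM of C3-/- retinas, and the double mutants read 0.078 and 1.24 CPM. How many of all genes stood apart in these small groups of run 2 alone was not computed. The order of the genotypes differed between the runs: C3-/- against wildtype was -2.35 in run 1 alone and 4.00 in run 2 alone, and Gne+/- against wildtype -0.36 and 3.96. The edgeR adjusted p-values in run 2 alone were 0.9 and 0.78. Over both runs the 4 fitted differences lay between -0.41 and 0.20, with SEs of 1.00 to 1.17.

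Osmr (chromosome 15, 6813577 to 6874969, minus strand) encodes the signalling subunit of the oncostatin M receptor. Across run 1 it read 1.58, 2.66, 3.79, 4.7 and 8.06 CPM in wildtype, 2.08, 4.94, 5.02, 6.28 and 7.83 CPM in Gne+/-, 1.28, 1.68, 4.08 and 4.57 CPM in C3-/- and 2.5, 3.94, 4.38 and 6.01 CPM in Gne+/- C3-/- retinas. In run 2 it read 0.795 to 5.24 CPM over all 9 retinas. The ranges overlapped in both runs, and the fitted differences lay between -0.34 and 0.48, with SEs of 0.45 to 0.47 and edgeR adjusted p-values of 0.983 or more.

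Stat3 (chromosome 11, 100885098 to 100939540, minus strand) encodes the transcription factor that carries the IL-6 family signal to the nucleus, where its activity depends on phosphorylation that a transcript count does not show. It had 470 to 5680 counts per library. Run 1 gave 46, 49.9, 60, 65.9 and 73.7 CPM in wildtype, 51.8, 53.1, 62.6, 62.7 and 81.1 CPM in Gne+/-, 35.3, 46.7, 50.4 and 59.2 CPM in C3-/- and 41.7, 46.1, 51.3 and 52.9 CPM in Gne+/- C3-/- retinas. Both groups without C3 lay toward the lower side of the other two and overlapped them. The fitted difference was 0.07 for Gne+/- against wildtype (interval -0.22 to 0.36) and -0.02 for Gne+/- C3-/- against C3-/- (interval -0.32 to 0.28). C3-/- against wildtype gave -0.19 (SE 0.14) and Gne+/- C3-/- against Gne+/- gave -0.28 (SE 0.14), with edgeR adjusted p-values of 0.999 and 0.8.

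Socs3 (chromosome 11, 117966079 to 117970047, minus strand) encodes the inhibitor that STAT3 induces and that shuts the receptor complex down. It had 0 to 78 counts and was detected in 20 of 27 libraries. Levels in run 1 were 0, 0, 0, 0.736 and 1.33 CPM in wildtype, 0, 0, 0.922, 2.28 and 4.29 CPM in Gne+/-, 0.0766, 0.225, 0.607 and 0.715 CPM in C3-/- and 0.0583, 0.0706, 0.303 and 0.415 CPM in Gne+/- C3-/- retinas. The highest values were those of Gne+/- mice 2 and 1, which were not the retinas with the highest Gfap. In run 2 it read 0 and 3.21 CPM in wildtype, 0.687 and 1.73 CPM in Gne+/-, 2.15, 2.89 and 3.75 CPM in C3-/-, and 0 and 2.25 CPM in Gne+/- C3-/- retinas. The fitted log2 fold changes were 1.46 for Gne+/- against wildtype (SE 1.22) and -1.22 for Gne+/- C3-/- against C3-/- (SE 1.28), with edgeR adjusted p-values of 0.914 and 1. The intervals ran from -1.07 to 3.98 and from -3.88 to 1.44, so both include 0.

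Between sequencing runs, 3 of the 9 members passed the threshold, in a comparison in which 59.5% of all genes did. Stat3 rose in run 2 by 1.53 on the log2 scale (SE 0.10, edgeR adjusted p = 9.73e-15), reading 120 to 186 CPM over the run 2 retinas against 35.3 to 81.1 CPM in run 1. Gfap fell by 1.61 (SE 0.33, edgeR adjusted p = 6.61e-05) and Serpina3n fell by 2.30 (SE 0.73, edgeR adjusted p = 0.00903). The other six, Cd44, Edn2, Lcn2, Socs3, Cp and Osmr, did not pass, with log2 differences from -0.37 to 1.92. Every genotype was in both runs, and the run was a term of the model.

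No pair of the 9 genes varied together from mouse to mouse past the test. Over 36 pairs in each run, 72 in all, 0 Pearson and 0 Spearman correlations of log2 CPM passed after Benjamini-Hochberg adjustment of permutation p-values. The permutation tests were 2-sided, with 100000 resamples in run 1 and every order of the 9 libraries in run 2. Pearson r ran from -0.44 to 0.60 over the 18 libraries of run 1, with a median of 0.08, and from -0.51 to 0.78 over the 9 libraries of run 2, with a median of 0.30, and 14 of 36 pairs were positive in both runs. Gfap and Cd44 had the highest r of run 1, 0.60 (permutation p = 0.0121, adjusted 0.435, Spearman rho 0.42 with permutation p = 0.0864), which became 0.18 without the 2 libraries farthest from the Gfap median, and their r in run 2 was -0.32. Serpina3n and Lcn2 had the highest r of run 2, 0.78 (permutation p = 0.0107, adjusted 0.435, rho 0.47 with permutation p = 0.213), which became -0.18 without 2 libraries, and their r in run 1 was -0.27. Gfap and Serpina3n had r of 0.40 in run 1 and 0.54 in run 2, with adjusted permutation p-values of 0.593 in both. With values centred on the genotype mean, r ran from -0.59 to 0.55 in run 1 and from -0.71 to 0.78 in run 2, and again 0 pairs passed.

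**Figure D4:**
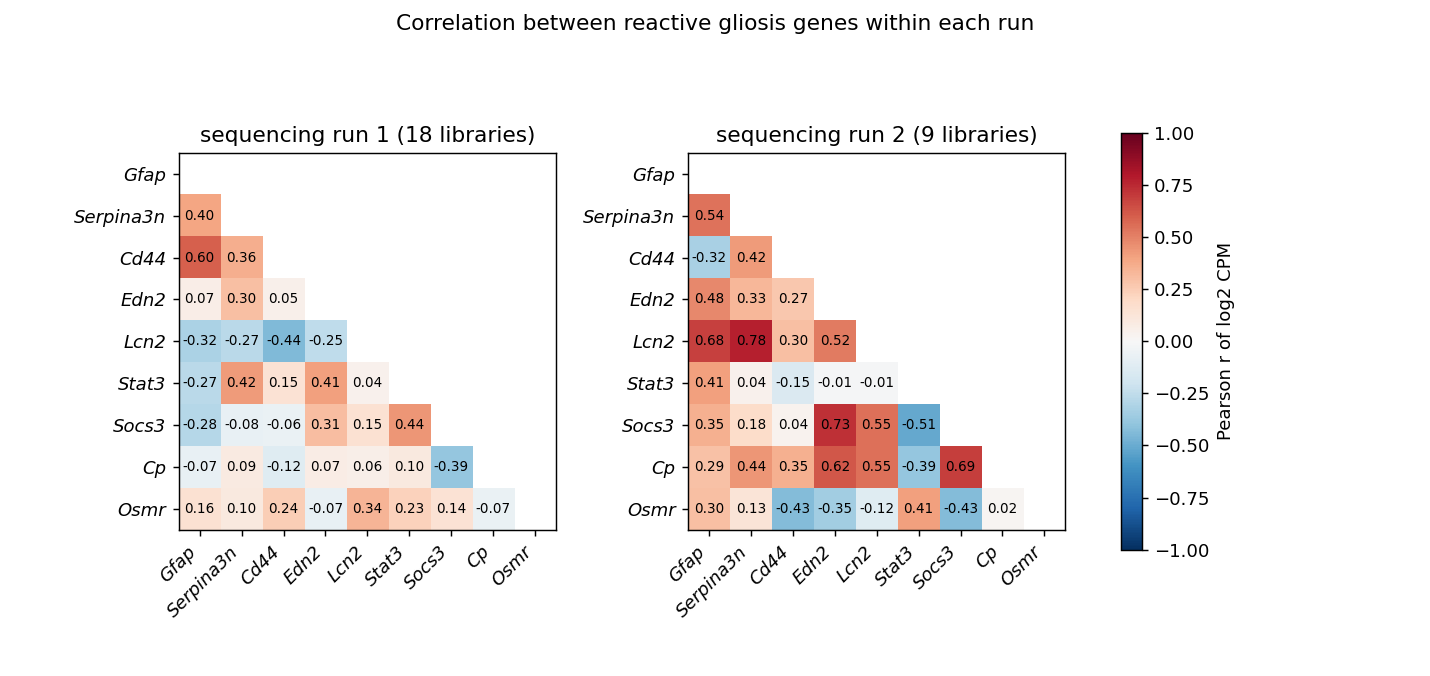
Pearson correlation of log2 CPM between each pair of reactive gliosis genes over the 18 libraries of run 1 (left) and the 9 libraries of run 2 (right), with red for positive and blue for negative values. The pair with the highest value differs between the runs, Gfap and Cd44 (0.60) in run 1 and Serpina3n and Lcn2 (0.78) in run 2, and no pair passed the permutation test after adjustment.

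Among the 10347 genes of at least 5 CPM on average that could be named, those most like Gfap over the 27 libraries, by Pearson r of log2 CPM centred on the run mean, were Fam110a (0.63), Cradd (0.61), H2-K2 (0.61), Hectd3 (0.59) and Nxn (0.59). These values are a description over libraries that share their scaling, and carry no test. In the same order of all 17408 genes other than Gfap, Serpina3n ranked 154 (r of 0.45) and Cd44 508 (r of 0.355), and the other members ranked from 2136 (Edn2) to 11107 (Stat3).

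The genes around the members were read as lists. Of 26 genes of the IL-6 family cytokines and the JAK-STAT pathway, 20 were tested, and 0 were called in any genotype comparison. For Gne+/- against wildtype 10 of the 20 were positive with a median log2 fold change of 0.0083 against 0.0051 over all genes, and for C3-/- against wildtype 8 of 20 with a median of -0.03 against -0.0055. Il6ra, the IL-6 receptor subunit, had the widest difference of the named genes, 3.69 for C3-/- against wildtype (SE 1.35, edgeR adjusted p = 0.71). Lifr, the receptor of leukaemia inhibitory factor, Socs5, a relative of Socs3, and Stat5a gave -0.33, -0.37 and 0.77 in that comparison, with edgeR adjusted p-values of 0.999. Cntf was listed at 0, with its whole span covered by other genes.

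Of 33 genes listed for reactive astrocytes of mouse brain, members left out, 20 were tested and 0 were called in any genotype comparison. For Gne+/- against wildtype 13 of 20 were positive with a median of 0.18, and for Gne+/- C3-/- against Gne+/- 5 of 20 with a median of -0.29, against 0.0051 and -0.0062 over all genes. S100a6, a calcium-binding protein, gave 0.56 and -0.72 in these comparisons, and S1pr3, a sphingosine-1-phosphate receptor, 0.59 and -0.63, with edgeR adjusted p-values between 0.705 and 0.857. B3gnt5, a glycosphingolipid enzyme, and Amigo2, an adhesion protein, went the other way, with -0.72 and -0.36 for Gne+/- against wildtype and edgeR adjusted p-values of 0.849 and 0.86. Both comparisons above use the same Gne+/- libraries. For Gne+/- C3-/- against C3-/- 11 of 20 were positive with a median of 0.07, and for C3-/- against wildtype 9 of 20 with -0.06. In that order S100a6 gave -0.01 and -0.14, and S1pr3 gave 0.16 and -0.20. Timp1, Cxcl10, Ptx3, H2-T23, Fgf2 and Tgm1 were listed at 0 under genes that cover most or all of their span, and Chi3l1 could not be matched to an identifier.

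Of 6 endothelin genes, 5 were tested and 0 called in the genotype comparisons, with a median of 0.14 for Gne+/- against wildtype and one of -0.39 where the double mutants were compared with Gne+/-. In these comparisons Edn1, the related vascular peptide, gave 0.50 and -1.12, and the converting enzyme Ece1 gave 0.39 and -0.39, with edgeR adjusted p-values between 0.804 and 0.933. Ednra, an endothelin receptor, was listed at 0, with its whole span covered by other genes. The enzyme Ece2 gave -0.66 and 0.002, and the third peptide gene, Edn3, gave -1.33 and 2.7. Both comparisons use the same Gne+/- libraries. The endothelin median was -0.02 for Gne+/- C3-/- against C3-/- and -0.04 for C3-/- against wildtype. Of 11 iron handling genes, which work with ceruloplasmin, 10 were tested and 0 called. The iron importer Slc39a14 gave -0.53 for C3-/- against wildtype, transferrin (Trf) 0.25, the ferritin light chain (Ftl1) -0.08 and the iron sensor Ireb2 -0.18, with edgeR adjusted p-values of 0.999. Of 10 genes for hyaluronan and other CD44 ligands, 8 were tested and 0 called. For Gne+/- against wildtype Has1, a hyaluronan synthase, gave -1.33, the hyaluronidase Hyal2 0.66, the link protein Hapln1 -0.87 and versican (Vcan) -0.01, with edgeR adjusted p-values between 0.894 and 0.997.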

How the data were processed

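QuantSeq 3′ libraries, made from 100 ng of RNA each, were deposited as a table of whole-number read counts per gene. The authors counted reads with featureCounts 2.0.3 over exon and gene features of Ensembl release 101 (GRCm38), per the file headers, without options for strand, overlapping genes or reads aligned at several places, so reads shared by overlapping genes are lost from both. STAR 2.7.3a and Subread 2.0.0 are named in the submitters' processing notes. The 27 single-library files equalled the series table. Each library is a separately numbered mouse in the labels, and same-group libraries differed by more than sampling noise (lowest chi-square per degree of freedom 9.77).

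Genes were kept with edgeR's filterByExpr (minimum count 10), scaled by TMM and fitted with edgeR 4.0.16's robust quasi-likelihood test (R 4.3.3) with a term for each genotype and for the run. All 27 libraries entered 1 fit, which left 22 residual degrees of freedom and a common biological coefficient of variation of 55.1%. The 95% intervals use the SE and these degrees of freedom. P-values were adjusted by Benjamini-Hochberg over all 17409 genes. CPM values use TMM-scaled library sizes, and log2 CPM a prior count of 2. Total counts of 13528183 to 34170608 set the precision, and limits at 0 use 3 counts. The test was checked on simulated counts. DESeq2 1.42.0, limma-voom 3.58.1, other filters and factors, single runs, a Y-linked covariate, the mouse number as a block and each library left out were tried as alternatives. Correlations and their permutation p-values were computed with numpy 2.4.6, with ranks from scipy 1.17.1.

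The members and lists were chosen with earlier results of these data known. All 9 members are named. From each pathway list, up to 4 tested genes with the smallest p for any difference among the genotypes are named. Genes like Gfap are the 5 with the highest r among genes of at least 5 CPM on average with a settled symbol.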

Additional observations from a re-analysis of the deposited data

Results flagged for a closer look

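In run 1, 4 values, from 3 libraries, stood far from the rest of their group, by the gap to the nearest value against the group's whole range. For normally distributed values, chance alone would single out about 1 in 20 groups, and 36 groups (9 genes in 4 genotypes) were examined. Whether that rate holds for these CPM values was not tested. Cd44 read 38.57 CPM in Gne+/- mouse 4, and the other Gne+/- retinas of the run read 12.5 to 18.6 CPM. Serpina3n read 15.06 CPM in Gne+/- C3-/- mouse 4 and at most 3.5 CPM in the other double mutants of the run, and without this library the log2 fold change for Gne+/- C3-/- against Gne+/- was -3.17. Lcn2 read 3.179 CPM in the same retina and at most 1.15 CPM in the other three. Cp read 57.21 CPM in wildtype mouse 6, below the 66.9 to 70.7 CPM of the other wildtype retinas of the run.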

How the results depend on the processing

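The 4 pairwise fold changes of the 9 members kept their direction and their side of the threshold under DESeq2, RLE factors, the stricter filter (over 1 CPM in 6 libraries) and the Y-linked covariate. Without the low-count filter, 1 member (Serpina3n) was called for C3-/- against wildtype, 1 for Gne+/- C3-/- against Gne+/- and 1 for any difference. Of 972 values with 1 library left out, 937 kept direction and side and 35 changed sign, none past the threshold, and the cause of a sign change was not tested. Socs3, Lcn2 and Edn2 had low counts and run 2 held 9 libraries, and whether deeper sequencing would narrow the intervals was not tested.

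For Gne+/- against wildtype, the values of other sign were, without the lens-richest libraries, Serpina3n -0.10, Lcn2 -0.052, Stat3 -0.052 and Osmr -0.036, in run 1 alone Edn2 -0.36, and in run 2 alone Lcn2 -0.14, Socs3 -0.40, Cp 0.17 and Osmr -0.62. Leaving out single libraries gave Serpina3n -0.12 to 0.52, Edn2 -0.14 to 0.68, Lcn2 -0.29 to 0.42, Stat3 -0.018 to 0.14 and Osmr -0.072 to 0.38.

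For Gne+/- C3-/- against C3-/- they were, with limma-voom, Gfap 0.12, Serpina3n 0.34 and Edn2 -0.49, with no run term Gfap 0.10, Serpina3n 0.56 and Edn2 -0.15, in run 1 alone Gfap 0.15, Serpina3n 0.96, Stat3 0.018 and Cp 0.077, and in run 2 alone Edn2 -2.12. Single libraries left out gave Gfap -0.36 to 0.019, Serpina3n -0.94 to 0.25, Edn2 -0.45 to 0.61 and Stat3 -0.080 to 0.054.

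For C3-/- against wildtype they were, with limma-voom, Edn2 0.79 and Osmr 0.20, with no run term Stat3 0.11, in run 1 alone Socs3 -0.041 and Cp -0.079, and in run 2 alone Edn2 4.00 and Stat3 0.009. Single libraries left out gave Edn2 -0.85 to 0.12. For Gne+/- C3-/- against Gne+/- they were, with limma-voom, Lcn2 -0.86, with no run term Osmr -0.05, in run 1 alone Edn2 0.10 and Osmr -0.33, and in run 2 alone Lcn2 -0.49 and Cp -0.10. Single libraries left out gave Lcn2 -0.36 to 0.59 and Osmr -0.19 to 0.20.

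Within a run, deviations from the group mean in mice that share a number gave r of -0.06 to 0.27, median 0.01, over 31 pairs. The other pairs of the same run gave -0.34 to 0.28, median -0.001, over 120 pairs. No pairing was seen in these values, and the labels name none. What a shared number stands for was not tested. With the mouse number as a block, 0 members were called, and of 36 fold changes 2 changed sign, Stat3 at 0.18 for Gne+/- C3-/- against C3-/- and Lcn2 at -0.21 for Gne+/- C3-/- against Gne+/-.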

Other observations

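The surroundings of the reactive gliosis genes were also read between the sequencing runs, where 59.5% of all genes passed edgeR's adjusted threshold. All 16 Müller glia markers passed, 5 higher and 11 lower in run 2, with a median log2 difference of -0.98. Of the reactive astrocyte genes, 3 rose and 8 fell in run 2, and of the IL-6 family and JAK-STAT genes 7 rose and 6 fell, among 20 tested in each list. The endothelin list had 1 gene that rose and 2 that fell of 5, the iron list 2 and 3 of 10, and the CD44 ligand list 2 and 1 of 8. The ferritin light chain gene Ftl1 stood out, with a run difference of 8.82 on the log2 scale (SE 0.56, edgeR adjusted p = 2.04e-15).

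Microglia markers, of which 13 of 14 were tested, gave 0 calls in the 4 pairwise genotype comparisons, with medians of 0.36 (Gne+/- against wildtype) and 0.38 (Gne+/- C3-/- compared with Gne+/-). The median was 0.28 for Gne+/- C3-/- against C3-/- and 0.24 for C3-/- against wildtype. P2ry12 was listed at 0, with its whole span covered by other genes.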
